A study of Rattus norvegicus with 82 samples.

Results

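A group of 10 genes for RNA-binding proteins that steer alternative splicing in heart muscle were followed through rat cardiomyocytes of both ventricles: *Rbm20*, *Rbm24*, *Rbfox1*, *Rbfox2*, *Mbnl1*, *Mbnl2*, *Celf1*, *Celf2*, *Qk* and *Ptbp1*. They were picked by gene symbol from the 17337 genes of the deposited table, all 10 were found, and all 10 were among the 11954 genes with enough counts to be tested. The 41 animals were F1 hybrids of female Wistar Kyoto and male Lewis rats in 3 surgical arms: a clip on the pulmonary artery (PAB) to load the right ventricle (RV), a clip on the aorta (AOB) to load the left ventricle (LV), and sham surgery. H stands for compensated hypertrophy and F for heart failure, so that all H animals were labelled as 11 weeks old and 7 weeks after surgery, PAB-F animals as 28 weeks old and 22 weeks after surgery, and Sham-F and AOB-F animals as 31 weeks old and 26 weeks after surgery. The H stage had 7 sham, 6 PAB and 6 AOB animals and the F stage 9 sham, 6 PAB and 7 AOB animals, of both sexes in every group, and each animal gave 1 RV and 1 LV library (82 libraries, 6675287 to 19665439 counts on genes, median 13074485). These are the ages of the sample labels, and the study's text places surgery and harvest at other ages. By the labels, PAB-F animals were younger than the Sham-F animals they were compared with, and stage and age could not be told apart between Sham-H and Sham-F.

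These proteins bind short motifs in pre-messenger RNA and decide whether nearby exons are kept or skipped. RBM20 represses exons of titin and of calcium-handling transcripts, RBM24 promotes muscle exons, RBFOX proteins read the motif GCAUG, and MBNL and CELF proteins act against each other during the change from fetal to adult heart splicing. Quaking, encoded by *Qk*, is a KH-domain protein of muscle and glia, and PTBP1 binds polypyrimidine tracts, represses muscle and neuronal exons and is typically high in proliferating and non-muscle cells. The values below are counts per gene, so they give the amount of each regulator's transcripts and hold no measurement of splicing itself.

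The start regions of 2 members are shown because they held the largest difference in each direction between the ventricles of sham animals: *Rbfox1*, which was higher in the RV, and *Ptbp1*, which was higher in the LV. RefSeq promoter windows of 300 bases (250 before and 50 after the annotated start, build GRCr8) were listed for 7 of the 10 members. In the *Rbfox1* window (chr10:8999342-8999641, minus strand) the capitals mark 2 E-boxes (CANNTG, the motif of basic helix-loop-helix factors), and in the *Ptbp1* window (chr7:10502908-10503207, minus strand) they mark 3 CCAAT boxes (CCAAT, the motif of NF-Y).

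Rbfox1: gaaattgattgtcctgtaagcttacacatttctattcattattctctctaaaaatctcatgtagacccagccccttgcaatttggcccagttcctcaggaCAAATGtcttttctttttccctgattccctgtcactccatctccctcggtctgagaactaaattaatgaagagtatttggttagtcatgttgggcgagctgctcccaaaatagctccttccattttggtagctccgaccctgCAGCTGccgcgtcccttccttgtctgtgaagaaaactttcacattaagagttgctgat

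Ptbp1: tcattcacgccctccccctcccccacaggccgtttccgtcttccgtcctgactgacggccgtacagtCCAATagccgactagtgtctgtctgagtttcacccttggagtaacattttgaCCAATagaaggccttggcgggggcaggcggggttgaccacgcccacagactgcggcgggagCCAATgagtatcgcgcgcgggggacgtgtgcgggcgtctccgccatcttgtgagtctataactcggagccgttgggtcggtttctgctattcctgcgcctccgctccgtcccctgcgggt

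Searched on both strands, an E-box was found in 72.1% and a CCAAT box in 37.5% of the 33469 rat windows of this length, and 3 or more CCAAT boxes in 3.02%. The *Ptbp1* window held 0 E-boxes and the *Rbfox1* window 0 CCAAT boxes. A TATA box (TATAAA), a MEF2 site or a CArG box was found in 0 of the 9 windows of the members, against 14.2%, 0.565% and 1.64% of all windows. The matches describe letters in these windows and hold no measurement of a factor binding there.

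On the length-corrected FPKM scale of the deposited table, *Rbm24* (median of 113 over the 82 libraries), *Mbnl1* (103) and *Rbm20* (82.2) were the most abundant members. *Celf1* (48.1), *Rbfox2* (47.1), *Qk* (46.2), *Mbnl2* (42.4), *Celf2* (34.9) and *Rbfox1* (31.4) followed, and *Ptbp1* had the lowest median (18.8). By group, *Rbfox1* means ran from 811.4 normalised counts in LV AOB-F to 2556 in RV Sham-F (3.15-fold) and *Ptbp1* means from 606.7 in RV Sham-F to 1736 in LV PAB-F (2.86-fold). *Qk* (2.51-fold), *Mbnl2* (2.33-fold), *Mbnl1* (1.88-fold), *Celf2* (1.72-fold), *Rbm24* (1.69-fold), *Rbm20* (1.58-fold) and *Celf1* (1.56-fold) spanned less, and *Rbfox2* the least (1.42-fold). Normalised counts are raw counts scaled to a common library size and allow one gene to be compared between groups, while genes are compared with each other by FPKM only.

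**Figure D1:**
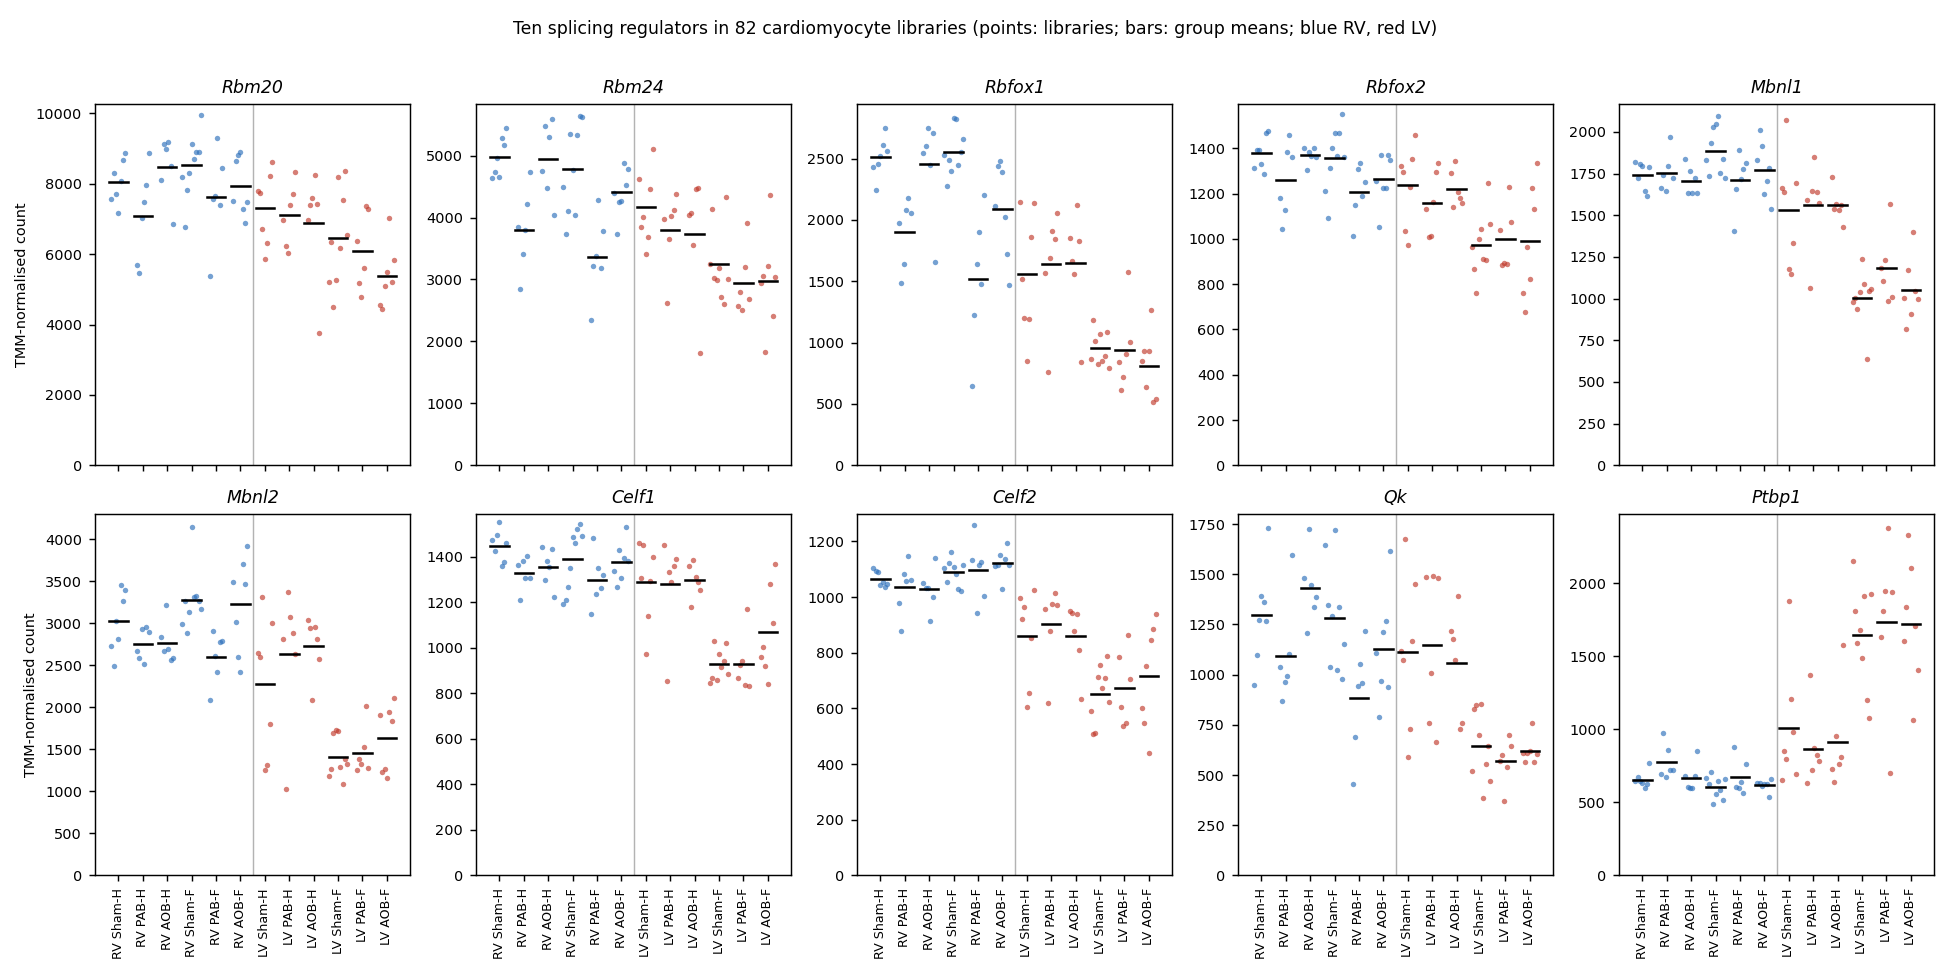
TMM-normalised counts (linear axis from 0) of the 10 members in every library, by group; points are libraries, bars group means, blue RV and red LV. The 3 F groups of the LV stand lowest for 9 members and highest for *Ptbp1*, whose LV F means are 1649 to 1736 against 606.7 to 674.5 in the RV.

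For *Rbfox1* the order of the group means was RV Sham-F (2556), RV Sham-H (2512), RV AOB-H (2453), RV AOB-F (2092), RV PAB-H (1902), LV AOB-H (1645), LV PAB-H (1638), LV Sham-H (1559), RV PAB-F (1516), LV Sham-F (953.4), LV PAB-F (943.1) and LV AOB-F (811.4). The SDs ran from 138.7 to 543.6, and only between RV PAB-F and LV Sham-F did neighbours in this order lie further apart than the larger of their SDs. For *Ptbp1* the order was LV PAB-F (1736), LV AOB-F (1722), LV Sham-F (1649), LV Sham-H (1010), LV AOB-H (911.7), LV PAB-H (867.8), RV PAB-H (774.3), RV PAB-F (674.5), RV AOB-H (670), RV Sham-H (655.7), RV AOB-F (619.4) and RV Sham-F (606.7). Here the step from LV Sham-F to LV Sham-H was the only one larger than the SDs of both groups (351.5 and 425.8). The means of the H groups of the LV therefore lay between those of the RV groups and those of the F groups of the LV, except that *Rbfox1* in RV PAB-F was below them.

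Some libraries stood apart from their groups for many members at once. LV Sham-H replicate 4 was the lowest of its 7 libraries for 8 of the 9 members other than *Ptbp1*, LV PAB-H replicate 2 the lowest of 6 for 7, LV AOB-H replicate 6 and RV AOB-H replicate 6 (from 1 animal) for 5 each, RV PAB-H replicate 2 for 7 and RV PAB-F replicate 1 for 8. Each of these 6 libraries also had the highest *Ptbp1* count of its group. Markers of other cell types were raised in the same libraries: transcripts of 7 endothelial genes made up 0.295% of the counts of LV Sham-H replicate 4 (0.109% to 0.219% in the other libraries of the group), 0.278% in LV PAB-H replicate 2 (0.129% to 0.183%), 0.529% in LV AOB-H replicate 6 (0.132% to 0.172%) 0.258% in RV AOB-H replicate 6 (0.0714% to 0.0894%), 0.226% in RV PAB-H replicate 2 (0.0887% to 0.168%) and 0.201% in RV PAB-F replicate 1 (0.088% to 0.151%). The label of the cells was checked against 9 ventricular cardiomyocyte markers such as *Myh6*, which made up 4.13% to 13% of the counts in every library. In a bulk library, a change in the mix of cells and a change in the RNA of each cell cannot be told apart, and the part of the other cell types in the results below was not tested.

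In the hearts of Sham-F animals, 9 splicing regulators were higher in RV than in LV cardiomyocytes and *Ptbp1* was lower. *Rbfox1* had 2273, 2532 and 2831 normalised counts (lowest, median, highest of 9) in the RV and 791, 888.1 and 1185 in the LV. The lowest RV library thus lay far above the highest LV library, and the mean was 2.68-fold higher in the RV (log2 difference 1.42, SE 0.17, adjusted p = 1.65e-11). *Ptbp1* ran the other way with 491.9, 628 and 708.4 counts in the RV and 1076, 1681 and 2156 in the LV. Its RV level was 0.368 times the LV level (log2 -1.44, SE 0.16, adjusted p = 1.66e-12), again without overlap.

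*Mbnl2*, the second largest of the increases, had 2892, 3269 and 4149 counts in the RV and 1088, 1322 and 1728 in the LV (2.33-fold, adjusted p = 6.15e-12). Its paralog *Mbnl1*, the main muscleblind gene of striated muscle, had 1725, 1836 and 2096 in the RV and 639.3, 1040 and 1235 in the LV (1.88-fold, adjusted p = 1.02e-13). Both muscleblind genes separated the ventricles completely. *Qk* (976 to 1723 against 384.9 to 851.9, 1.99-fold), *Celf2* (1023 to 1161 against 508.5 to 790, 1.67-fold) and *Celf1* (1194 to 1542 against 844.4 to 1029, 1.5-fold) did not overlap either. The libraries overlapped for *Rbm24* (3730 to 5644 against 2611 to 4325, 1.47-fold), *Rbfox2* (1094 to 1553 against 762.2 to 1247, 1.39-fold) and *Rbm20* (6783 to 9964 against 4506 to 8378, 1.32-fold, log2 0.40, SE 0.11, adjusted p = 0.000952), whose difference was the smallest of the 10.

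All 10 members were thus called at an adjusted p under 0.05 by edgeR's quasi-likelihood test, in a comparison in which 74.3% of all genes tested were called, 35.6% as higher and 38.6% as lower in the RV. Without overlap between the libraries were 7 members, against 41.8% of all genes, and 3 members (*Rbfox1*, *Mbnl2*, *Ptbp1*) met the 3 criteria of the study (a 2-fold change, an unadjusted p under 0.01 and a mean above 50), against 27.7%. Being called was therefore common to most genes here. The direction was more one-sided, with a median log2 difference of 0.66 over the members and -0.07 over all genes. A difference at least as large in the same direction was held by 7.68% of genes for *Rbfox1*, by 9.31% for *Ptbp1* and by 34.1% for *Rbm20*.

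Within animals the pattern of the members was regular. The share of all genes as regular was not computed, so this is not shown to be particular to the members. RV counts exceeded LV counts in 9 of 9 Sham-F animals for *Rbm20*, *Rbfox1*, *Rbfox2*, *Mbnl1*, *Mbnl2*, *Celf1*, *Celf2* and *Qk* and in 8 of 9 for *Rbm24*, and *Ptbp1* was lower in the RV in 9 of 9. In 8 of the 9 animals all 10 members differed in these directions together. The same held in 7 of 7 AOB-F and 4 of 6 PAB-F animals but in 3 of 7 Sham-H, 1 of 6 PAB-H and 0 of 6 AOB-H animals, among which *Mbnl2* was higher in the LV in 4 of 6 AOB-H animals.

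**Figure D2:**
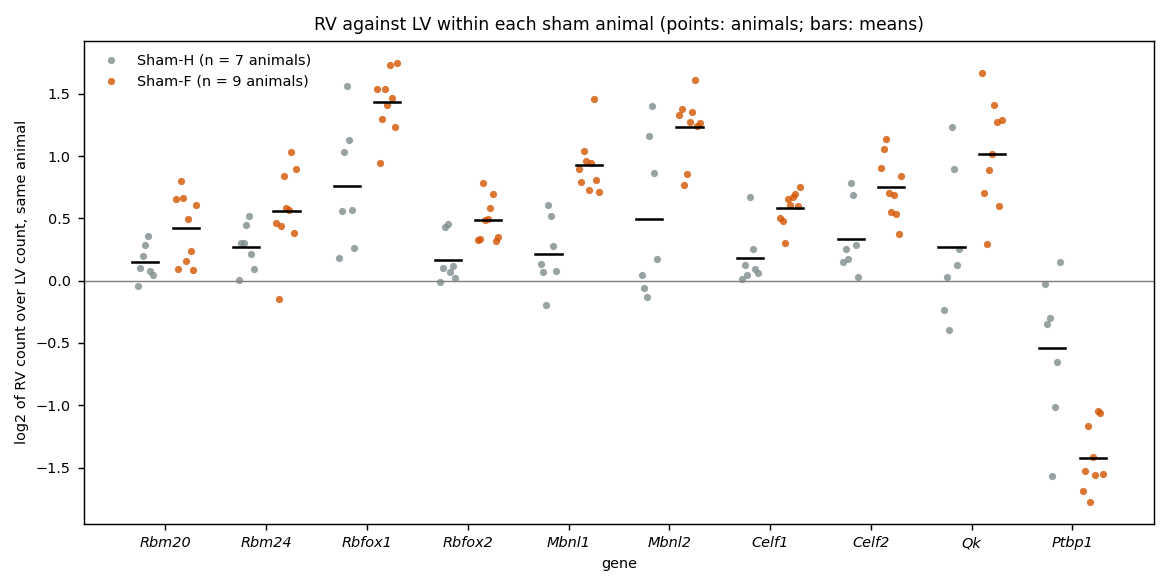
Log2 ratio of RV to LV normalised counts within each sham animal (vertical axis), by gene (horizontal axis); points are animals, bars means, grey Sham-H (n = 7) and orange Sham-F (n = 9). In Sham-F, *Rbfox1* ratios lie between 0.94 and 1.75 and *Ptbp1* ratios between -1.77 and -1.04, while in Sham-H several genes have animals on both sides of 0.

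Markers of non-myocytes moved with the ventricles in Sham-F. Endothelial transcripts made up 0.0643% to 0.109% of the counts of RV libraries and 0.197% to 0.359% of those of LV libraries, and 6 of 7 endothelial genes were lower in the RV. Of the other lists, 6 of 9 fibroblast, 5 of 7 mural and 5 of 8 macrophage genes tested were lower in the RV and 0 higher, with summed shares of 0.0151% to 0.0507% against 0.0427% to 0.128% (fibroblast), 0.0303% to 0.0505% against 0.0706% to 0.16% (mural) and 0.00138% to 0.0045% against 0.00429% to 0.017% (macrophage). Of the fibroblast markers *Col1a2* had 0 counts in every RV Sham-F library. This was not particular to that group: 1 fibroblast marker also had 0 counts in every library of LV Sham-H, RV Sham-H, LV PAB-H and RV PAB-F. Of the 10 listed fibroblast markers 9 had enough counts to be tested. Cardiomyocyte markers made up 9.67% to 13% in the RV and 7.43% to 9.62% in the LV, with 5 of 9 genes higher and 2 lower in the RV. The part of these differences in the result was not tested. Long genes also tended to be higher in the RV (median log2 difference of -0.27 in the shortest and 0.15 in the longest of 5 length classes), and with the length trend of each library removed the *Rbm20* difference was 0.17 and no longer passed the test (adjusted p = 0.206), while the other 9 members did.

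Between Sham-H and Sham-F the difference lay in the LV. LV libraries of Sham-F had lower levels than those of Sham-H for 8 members and a higher level of *Ptbp1*, so that 9 of 10 members were called (57.4% of all genes, 27.8% higher and 29.6% lower in Sham-F). *Qk* was 0.578 times as high in Sham-F (384.9, 644 and 851.9 counts against 591.3, 1117 and 1677; adjusted p = 0.000136). *Rbfox1* fell to 0.612 times its Sham-H level (adjusted p = 0.000568), *Mbnl2* to 0.619 (7.78e-05), *Mbnl1* to 0.654 (1.07e-06) and *Celf1* to 0.719 (3.4e-06). *Celf2* stood at 0.76, *Rbm24* at 0.781 and *Rbfox2* at 0.788 of the Sham-H level (adjusted p = 0.00134, 0.0159 and 0.00162), and *Ptbp1* rose 1.63-fold (adjusted p = 0.000359). *Rbm20* had 4506, 6360 and 8378 counts in Sham-F and 5863, 7738 and 8608 in Sham-H and was not called (0.882-fold, adjusted p = 0.185).

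For all 10 genes the LV libraries of the 2 groups overlapped, where 1.68% of all genes did not. *Ptbp1* in the LV Sham-H libraries was 656.1, 695.2, 800.1, 851.9, 981.7, 1209 and 1879 counts, and *Rbfox1* in the same libraries in this order of *Ptbp1* was 2144, 2136, 1199, 1522, 1862, 1196 and 854. The library with most *Ptbp1* (replicate 4) had a *Rbfox1* count in the range of Sham-F and the next (replicate 5) one just above it, and both had the highest endothelial shares of their group (0.295% and 0.219%). Replicate 3 had nearly the same *Rbfox1* count as replicate 5 (1199 against 1196) with 800.1 *Ptbp1* counts and an endothelial share of 0.161%. The coefficient of variation was larger in LV than in RV Sham-H for all 10 members, with 13.8% to 42.1% in the LV and 2.65% to 19.1% in the RV. Of the marker lists, 3 of 7 endothelial, 5 of 9 fibroblast, 5 of 7 mural and 5 of 8 macrophage genes were higher in LV Sham-F than in LV Sham-H and 0 were lower, and 5 of 9 cardiomyocyte genes were lower and 2 higher. Endothelial shares ran from 0.109% to 0.295% in LV Sham-H and from 0.197% to 0.359% in LV Sham-F. Whether these shifts contributed was not tested.

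In the RV no member was called between Sham-F and Sham-H, with 0.0502% of all genes called. At an unadjusted p under 0.05 it was 0 of 10 members against 5.03% of genes, and DESeq2 called 0 as well. The log2 differences ran from -0.11 to 0.12 with SEs of 0.08 to 0.18. *Rbfox1* had 2512 ± 158.3 counts (mean ± SD, n = 7) in RV Sham-H and 2556 ± 187 (n = 9) in RV Sham-F, and the 95% interval of its log2 difference was -0.33 to 0.38.

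The difference between the ventricles was itself larger in Sham-F than in Sham-H for 8 members (41.6% of all genes were called in this interaction, 23% upward and 18.6% downward). The RV minus LV log2 difference grew by 0.81 for *Mbnl2* (SE 0.21, adjusted p = 0.00215), by 0.77 for *Qk* (adjusted p = 0.011), by 0.73 for *Rbfox1* (adjusted p = 0.0161) and by 0.73 for *Mbnl1* (adjusted p = 0.000234). Increments of 0.43 for *Celf2*, 0.42 for *Celf1* and 0.32 for *Rbfox2* passed as well (adjusted p = 0.0204, 0.00379 and 0.0482), and *Ptbp1* moved by -0.82 in the opposite direction (adjusted p = 0.00518). The increments of *Rbm24* (0.30, 95% interval -0.06 to 0.66) and *Rbm20* (0.26, -0.06 to 0.59) did not pass. *Rbfox2* lay close to the threshold: its call was lost in 21 of the 32 fits without 1 library, and in 1 more (without LV Sham-F replicate 4) its adjusted p rounded to 0.05.

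In Sham-H, 3 members differed between the ventricles, where 21% of all genes were called (9.62% higher and 11.4% lower in the RV). *Rbfox1* had 2244, 2525 and 2750 counts in the RV and 854, 1522 and 2144 in the LV (1.61-fold, log2 0.69, SE 0.19, adjusted p = 0.00802). *Celf2* had 1036, 1054 and 1103 against 606.4, 920.1 and 1024 (1.24-fold, adjusted p = 0.0417). These 2 genes did not overlap between the ventricles, which held for 4.59% of all genes, but *Celf2* kept its call in only 4 of the 14 fits without 1 library.

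*Ptbp1* was lower in the RV of Sham-H (597.7, 643.6 and 770.1 against 656.1, 851.9 and 1879 counts, 0.648-fold, adjusted p = 0.0105), with overlapping libraries. *Mbnl2* was just outside the threshold (1.33-fold, adjusted p = 0.0516) and inside it when the animal was a block in the fit (adjusted p = 0.0104), which gave 4 called members and raised the called genes from 2510 to 3887. Without LV Sham-H replicate 4 none of the 10 was called, with log2 differences of 0.58 for *Rbfox1* (adjusted p = 0.053), 0.24 for *Celf2* (0.189) and -0.40 for *Ptbp1* (0.143), against 0.69, 0.31 and -0.63 with it. Endothelial shares were 0.0755% to 0.109% in the RV and 0.109% to 0.295% in the LV of Sham-H, 5 of 7 of these genes being lower in the RV, and their part was not tested.

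**Figure D3:**
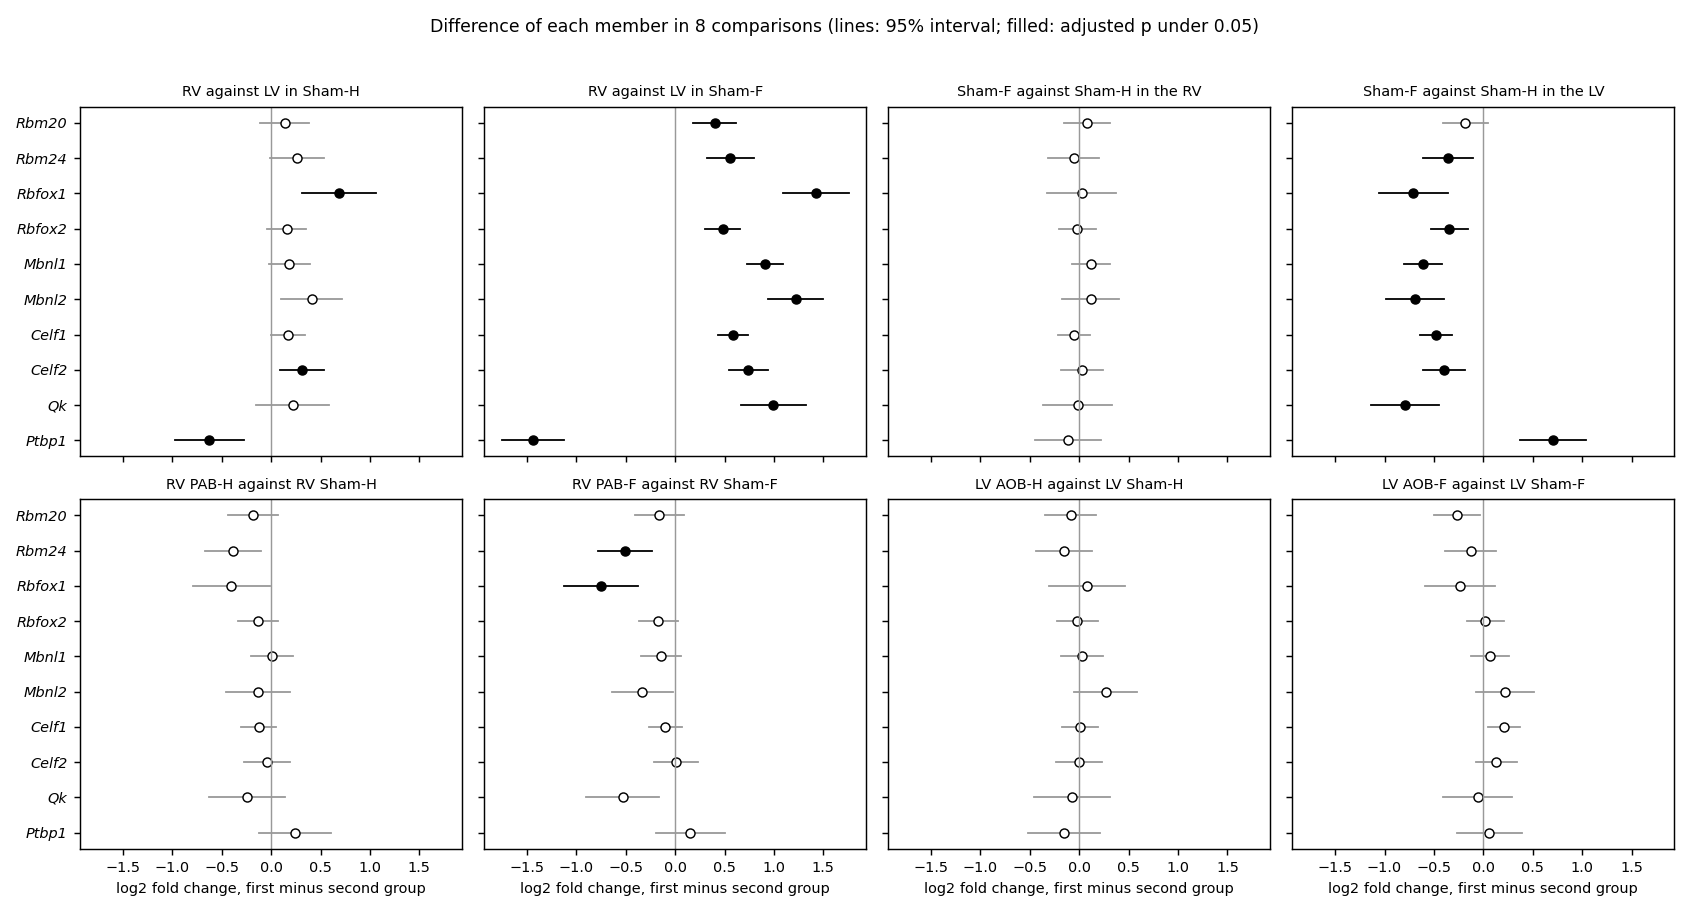
Log2 fold change of each member (horizontal axis, first minus second group) in 8 comparisons; lines are 95% intervals and filled points have an adjusted p under 0.05. The filled points lie in RV against LV (10 in Sham-F, 3 in Sham-H), in Sham-F against Sham-H of the LV (9) and in RV PAB-F (2), and 0 in the other 4 panels.

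In the failing RV of PAB-F animals *Rbfox1* and *Rbm24* were lower than in RV Sham-F. *Rbfox1* had 648.6, 1558 and 2204 counts in RV PAB-F and 2273, 2532 and 2831 in RV Sham-F, so that every PAB-F library lay below every Sham-F library (0.593-fold, log2 -0.75, SE 0.19, adjusted p = 0.00556). *Rbm24* had 2342, 3297 and 4277 against 3730, 4772 and 5644 counts with some overlap (0.703-fold, log2 -0.51, SE 0.14, adjusted p = 0.0105). Of all genes 11.1% were called in this comparison and 3.42% called as lower, and 2.71% did not overlap. A fall at least as large as that of *Rbfox1* was seen for 1.36% of genes and one as large as that of *Rbm24* for 3.66%.

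*Qk* had 454.5, 950.9 and 1220 counts in RV PAB-F against 976, 1293 and 1723 in RV Sham-F and was just outside the threshold (0.692-fold, adjusted p = 0.0539). *Mbnl2* was at 0.793-fold (adjusted p = 0.151). With an unadjusted p under 0.05 there were 4 members, the 2 called ones with *Qk* and *Mbnl2*, against 27.9% of all genes. The other 6 members had log2 differences between -0.17 (*Rbfox2*) and 0.15 (*Ptbp1*), the 95% interval of *Rbm20* being -0.40 to 0.08.

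RV PAB-F replicate 1 weighed on this result: without it 0 members were called, with log2 differences of -0.60 for *Rbfox1* (adjusted p = 0.0656) and -0.42 for *Rbm24* (adjusted p = 0.0908). It was also the library with the most endothelial (0.201%), fibroblast (0.199%) and macrophage (0.0171%) transcripts and the fewest cardiomyocyte transcripts (6.44%) of its group. Across the group, endothelial shares were 0.088% to 0.201% in RV PAB-F and 0.0643% to 0.109% in RV Sham-F, and 2 of 7 endothelial, 5 of 9 fibroblast, 2 of 7 mural and 3 of 8 macrophage genes were called as higher and 0 of 9 cardiomyocyte genes as changed. The part of these cells was not tested.

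At the hypertrophic stage of the RV no member was called in PAB-H against Sham-H (4.5% of all genes), and DESeq2 also called 0. *Rbm24* (2853, 3818 and 4729 against 4645, 4957 and 5438 counts, 0.764-fold, adjusted p = 0.0981) and *Rbfox1* (1486, 2014 and 2176 against 2244, 2525 and 2750, 0.757-fold, adjusted p = 0.233) were the 2 members with an unadjusted p under 0.05, against 20.6% of genes. The *Rbfox1* libraries did not overlap, which held for 3.24% of genes. When the fit held only these 2 groups both genes passed (adjusted p = 0.0133 for *Rbfox1* and 0.0202 for *Rbm24*), in a fit that called 13.3% of all genes. In the fit of all groups without RV PAB-H replicate 2, the adjusted p rose to 0.596 for *Rbfox1* and 0.448 for *Rbm24*. That library had the highest fibroblast share (0.304%) and the lowest cardiomyocyte share (8.28%) of its group. All 9 fibroblast genes tested were higher in RV PAB-H than in RV Sham-H (median log2 difference 1.44), with 1 of 7 endothelial and 1 of 7 mural genes higher, 0 of 8 macrophage and 0 of 9 cardiomyocyte genes called, and their part was not tested. The response to PAB did not differ detectably between the stages for any member (0 called of 10 and 0 at an unadjusted p under 0.05, against 0% and 1.48% of genes, and 0 by DESeq2), the log2 difference for *Rbfox1* being -0.35 with a 95% interval of -0.89 to 0.18.

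The LV of the same PAB-F animals gave 0 called members by edgeR and by DESeq2 (0% of genes). There *Rbfox1* had 617.3, 872.7 and 1572 counts against 791, 888.1 and 1185 in LV Sham-F (log2 -0.02, 95% interval -0.38 to 0.35). Only *Mbnl1* had an unadjusted p under 0.05 (1.18-fold, adjusted p = 1), against 3.8% of genes. Tested directly, the PAB-F response of *Rbfox1* differed between RV and LV by -0.74 on the log2 scale (SE 0.27, adjusted p = 0.228) without and by -0.77 (adjusted p = 0.0401) with the animal as a block. Of the 10 members 0 were called without the block and 1 with it, where the called genes rose from 42 (0.351%) to 349, and 2 (*Rbfox1* and *Mbnl1*) had an unadjusted p under 0.05 without the block, against 12.9% of genes. Without RV PAB-F replicate 1 the *Rbfox1* difference was -0.53 (adjusted p = 0.617, no block).

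In the failing LV of AOB-F animals 0 members were called by edgeR and by DESeq2. Of all genes 12.9% were called in the fit of all groups and 0.125% when the fit held only these 2 groups, which also called 0 members. *Celf1* (840.5, 1005 and 1368 counts against 844.4, 914.2 and 1029 in LV Sham-F, 1.15-fold, adjusted p = 0.0831) and *Rbm20* (4445, 5201 and 7019 against 4506, 6360 and 8378, 0.832-fold, adjusted p = 0.125) had an unadjusted p under 0.05, against 28.7% of genes. Leaving out LV AOB-F replicate 3 or 4 brought *Celf1*, and leaving out LV Sham-F replicate 3 brought both genes, under the threshold. Of the 16 fits without 1 library, *Celf1* was thus called in 3 and *Rbm20* in 1. The adjusted p of *Celf1* rose to 0.317 without LV AOB-F replicate 7, and that of *Rbm20* to 0.256 without LV Sham-F replicate 8. *Rbfox1* had a log2 difference of -0.23 (95% interval -0.59 to 0.12) and *Ptbp1* one of 0.06 (-0.27 to 0.39). The LV response did not differ detectably from the RV response to AOB (0 of 10 called and 0 with an unadjusted p under 0.05, against 0% and 9.71% of genes, and 0 by DESeq2).

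The other banding comparisons gave 0 called members each, by edgeR and by DESeq2. In RV AOB-F (0.0669% of genes called) 0 members had an unadjusted p under 0.05 against 4.32% of genes, and *Rbfox1* again had the largest change, at 0.818-fold (95% interval of the log2 change -0.64 to 0.06). In LV AOB-H (0.0167% called, 20% at an unadjusted p under 0.05), LV PAB-H (0% and 2.55%) and RV AOB-H (0% and 1.43%) there were likewise 0 members with an unadjusted p under 0.05, and log2 changes lay between -0.22 and 0.27. The 3 banded and sham groups of a ventricle and stage share their sham controls, so these comparisons are not independent of each other.

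**Figure D4:**
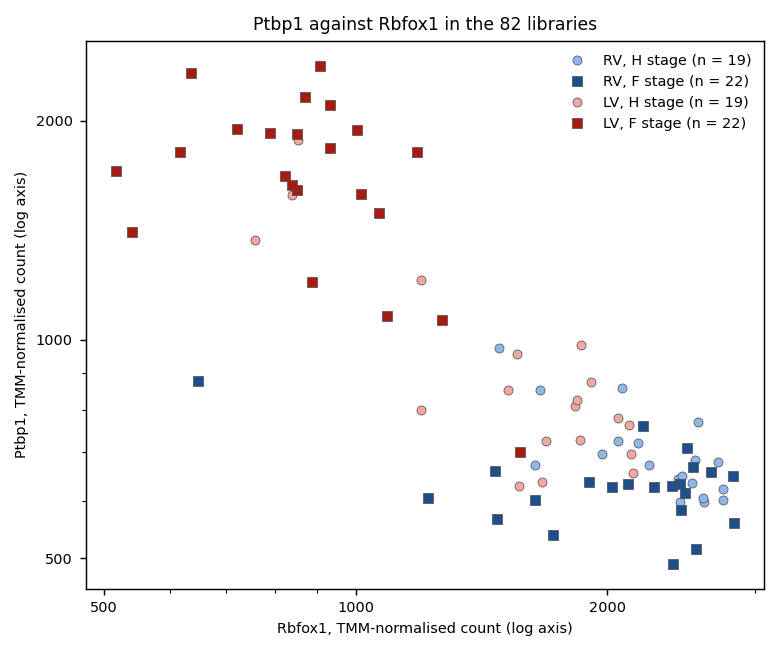
*Ptbp1* against *Rbfox1*, both as normalised counts on log axes, in the 82 libraries; circles are H, squares F, blue RV and red LV. Most F libraries of the LV lie at the upper left, but not LV PAB-F replicate 5 (1572 *Rbfox1* and 700.8 *Ptbp1* counts), and LV AOB-F replicate 5 lies near the middle (1268 and 1064). Most RV libraries lie at the lower right, with RV PAB-F replicate 1 (648.6 *Rbfox1* counts) and, less far, replicate 2 (1222) to their left. The H libraries of the LV spread over both areas.

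Over the 12 group means (log2 scale, relative to library size), the members moved as a block with *Ptbp1* against them. Pearson's r between members other than *Ptbp1* ran from 0.759 (*Rbm24* and *Celf2*) to 0.974 (*Rbfox1* and *Rbfox2*), and r with *Ptbp1* from -0.979 (*Celf2*) to -0.816 (*Rbm24*). *Mbnl1* and *Mbnl2* had r = 0.964, *Celf1* and *Celf2* r = 0.928, and *Rbm20* and *Rbm24* r = 0.905. These 12 points are groups that share animals between the ventricles, and the values are a description. Genes outside the group followed single members more closely still (r of 0.982 to 0.997, given below). The share of all genes with an r as high as between members was not computed, so the block is not shown to be particular to these genes.

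Among 9447 genes with a mean count over 50, the genes whose group means followed a member most closely had r of 0.982 to 0.997 over the 12 groups. For *Rbm20* they were *Ldb3*, a Z-disc protein (0.987), and *Asb14* (0.982), and for *Rbm24* *Baalc* (0.986) and *Khdrbs3* (0.983), the latter another splicing regulator. *Rbfox1* was followed by *Tmem65* and *Erbb4* (0.991 each), the latter the neuregulin receptor of cardiomyocytes, and *Rbfox2* by *Helz* (0.991) and *Ppp3cc* (0.989), a catalytic subunit of calcineurin. The closest to *Mbnl1* were *Gtf3c3* and *Apool* (0.993 each), to *Mbnl2* *Cldnd1* (0.997) and *Usp1* (0.996), to *Celf1* *Psmc1* (0.992) and *Ehd4* (0.991), and to *Celf2* *Mrfap1* (0.994) and *Armt1* (0.991). *Qk* was nearest to *Ak4* (0.991) and *Lpin1* (0.984), and *Ptbp1* to *Ltbr*, the lymphotoxin beta receptor (0.996), and *Atf6b* (0.995).

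Of 92 other genes of the splicing lists (10 of them RBM20 target transcripts), 61 were higher and 16 lower in the RV of Sham-F animals (83.7% called, against 74.3% of all genes, of which 35.6% were higher and 38.6% lower). Of 17 hnRNP genes tested 14 were higher and 1 lower in the RV (median log2 difference 1.15), led by *Hnrnpa2b1* (4588 ± 480.7 against 973.1 ± 281.1 counts, log2 2.24) and *Hnrnpa1* (2055 ± 194.9 against 480.9 ± 156.8, log2 2.10), both exon-silencing proteins. Of 12 SR proteins, which mostly favour exon inclusion, 9 were higher and 1 lower (median 0.92), with *Srsf10* at 1.26 and *Tra2b* at 1.15. These 2 symbols carry the same NCBI gene ID in the deposited table, so whether they stand for separate genes there is unclear. Among their kinases 3 of 7 were higher and 2 lower (median 0.14), the largest being *Clk4* (1.66) and *Clk1* (1.65). Of 23 core spliceosome genes 13 were higher and 6 lower (median 0.45), with *Snrpb2* at 2.38 and *Sf3b1* at 1.27, and of 17 other tissue-restricted or alternative splicing factors 11 were higher and 3 lower (median 0.45), with *Tardbp* at 1.56 and *Rbm25* at 1.31. Family relatives went both ways (1 of 6 higher, 3 lower, median -0.32): *Ptbp2*, the neuronal paralog of *Ptbp1*, was higher in the RV (547.6 ± 36.64 against 252.1 ± 56.35 counts, log2 1.12, adjusted p = 5.87e-12), whereas *Ptbp3* was lower (log2 -0.53, adjusted p = 0.00409). The median over all genes was -0.07. The other cell types given above for this comparison were not tested for their part in these values.

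Between the sham stages in the LV, 52 of these 92 genes were lower and 8 higher in Sham-F, where 29.6% of all genes were lower and 27.8% higher. Lower were 12 of 17 hnRNP genes (0 higher), 8 of 12 SR proteins (1 higher), 4 of 7 kinases (0 higher), 11 of 23 core spliceosome genes (5 higher), 9 of 17 other splicing factors (2 higher) and 1 of 6 family relatives (0 higher, median log2 difference 0.24). *Hnrnpa2b1* fell by 1.48 on the log2 scale, *Snrpb2* by 1.42, *Hnrnpa1* by 1.23, *Clk1* by 1.01 and *Clk4* by 0.91. Smaller were the falls of *Tardbp* (log2 -0.75), *Prpf3* (-0.72), *Srsf10* (-0.69), *Tra2b* (-0.68) and *Rbm25* (-0.68), with adjusted p of 0.000169 or less. The lower relative was *Ptbp2*, which fell from 460.2 ± 96.23 to 252.1 ± 56.35 counts (log2 -0.87, adjusted p = 8.38e-07).

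Known targets of RBM20 were described by their total counts, which do not show which exons were used. All 10 targets tested were higher in the RV of Sham-F (median log2 difference 0.93), where 35.6% of all genes were higher (median -0.07). They included the junctional protein gene *Trdn* (3348 ± 341.7 against 836.4 ± 212 counts), the kinase gene *Camk2d* (2980 ± 161.7 against 1225 ± 163.8) and the ryanodine receptor gene *Ryr2* (log2 1.11), and the smallest difference was that of the calcium channel gene *Cacna1c* (log2 0.41, adjusted p = 0.00444). *Lmo7* (1.02), *Pdlim5* (1.05), *Rtn4* (0.84), *Pdlim3* (0.58), *Ldb3* (0.57) and *Enah* (0.56) lay between. In the LV of Sham-F 7 of 10 were lower than in Sham-H, where 29.6% of all genes were lower. They ran from *Trdn* (log2 -1.04), *Ryr2* (-0.84), *Camk2d* (-0.71), *Lmo7* (-0.69) and *Pdlim5* (-0.63) to *Enah* (-0.48) and *Rtn4* (-0.46). When the fit held only these 2 groups *Rtn4* was not called (log2 -0.47, adjusted p = 0.0649). The part of the mix of cells, given above for both comparisons, in these values was not tested.

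In RV PAB-F 10 of the 92 genes were called (10.9%, against 11.1% of all genes), 3 as higher and 7 as lower. The kinase gene *Srpk3*, which is restricted to muscle, rose (2280 ± 468 against 1467 ± 91.87 counts, log2 0.64, SE 0.16, adjusted p = 0.00404), *Khdrbs3* fell by 0.71 (adjusted p = 0.00155) and *Rbm38*, a relative of *Rbm24*, fell by 0.47 (adjusted p = 0.0168). Of the RBM20 targets, the actin regulator gene *Enah* rose (3624 ± 1009 against 2298 ± 238.5 counts, log2 0.66, adjusted p = 0.0181). The endoplasmic reticulum gene *Rtn4* rose as well (4574 ± 1806 against 2994 ± 279.8 counts, log2 0.61, adjusted p = 0.0295). For both genes the SD was larger in RV PAB-F than in RV Sham-F. Of 17 hnRNP genes 2 were lower (*Hnrnpd*, log2 -0.40, and *Pcbp2*, -0.34), of 23 core spliceosome genes 2 (*Sf3a1*, -0.41, and *Sf1*, -0.25), and of the other splicing factors, beside *Khdrbs3*, *Rbpms2* (-0.36). Results for these 92 genes without RV PAB-F replicate 1 were not examined, and the part of the other cell types was not tested.

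In LV AOB-F 13 of the 92 genes were called (14.1%, against 12.9% of all genes), 11 as higher and 2 as lower, and 0 when the fit held only these 2 groups. The targets *Rtn4* (log2 0.85), *Pdlim5* (0.82) and *Enah* (0.64) rose (adjusted p = 0.00175, 0.000928 and 0.0165), *Rbm38* fell by 0.60 (adjusted p = 0.00161), and 3 of 17 hnRNP and 5 of 23 core spliceosome genes were higher, among them *Hnrnpa1* (log2 0.66), *Hnrnpf* (0.52), *Prpf3* (0.55) and *Snrnp200* (0.52). The other lower gene was 1 of the 17 other splicing factors, with a mean of no more than 50 counts in either group. In the fit of 2 groups these 8 named genes had adjusted p of 0.0786 (*Pdlim5*) to 0.116 (*Snrnp200*), with log2 differences of 0.83 for *Rtn4* and -0.62 for *Rbm38*. Of the markers, 3 of 8 macrophage, 2 of 7 endothelial, 1 of 9 fibroblast and 1 of 7 mural genes were higher in LV AOB-F. Of 9 cardiomyocyte genes 0 were called (median log2 difference -0.23). Their summed share was 4.13% to 9.66% of the counts in LV AOB-F and 7.43% to 9.62% in LV Sham-F. *Myh6* alone made up 0.464% to 3.76% against 1.99% to 3.76%. The part of the cell types was not tested. The LV AOB-F response of *Rbfox1* was -0.23 and that of *Rbm24* -0.13, and whether these differ from the RV PAB-F responses was not tested.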

How the data were processed

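Ventricular cardiomyocytes were isolated by collagenase perfusion and centrifugation, total RNA was depleted of ribosomal RNA, and 82 libraries (1 per ventricle of 41 animals) were sequenced. The authors trimmed reads with Trim Galore, aligned them to the rat genome Rnor6.0 with STAR, and counted them per gene with featureCounts. They deposited raw counts, normalized counts (a signal value, the counts divided by DESeq2 1.28.1 size factors) and FPKM values. Here the raw counts were fitted with edgeR 4.0.16 (R 4.3.3; TMM factors, filterByExpr keeping 11954 of 17337 genes, and a joint quasi-likelihood model of the 12 groups), and a gene was called at a Benjamini-Hochberg adjusted p under 0.05 over all genes tested. SEs are the log2 difference over the square root of F. Normalised counts are raw counts over the TMM effective library size times its mean (13279120), and FPKM values served only to compare genes. Duplicate libraries were looked for by chi-square and none was found.

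Per the labels, each RV library has an LV partner from its own animal. Partners' deviations from their group means correlated with a median r of 0.186 to 0.297 per condition, against -0.069 to -0.014 for different animals, and values from a fit blocked by animal are given where they change a call. The members and gene lists were chosen with earlier results of these data known. Named besides the members were, per splicing list, the 2 called genes with the largest change and a mean over 50 in 4 comparisons (for RBM20 targets all called genes), and the 2 genes closest to each member. DESeq2 1.42.0, RLE factors, no filter, sex, length, 2 groups only, blocks and left-out libraries were the alternatives. The fit of 2 groups for the other splicing genes was chosen after seeing the data. The functions were tested on simulated data. A genome of the authors' build was not used here.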

Additional observations from a re-analysis of the deposited data

Results flagged for a closer look

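Of 120 sets of values (10 members in 12 groups), 19 had a highest or lowest library set apart from the rest by Dixon's test at 95%. In independent sets chance alone gives about 5%. The 10 members were measured in the same libraries, so the sets are not independent and the 19 cannot be read against that share. The share over all genes was not computed. LV PAB-H replicate 2 was lowest for *Rbfox1* (757.3 normalised counts), *Mbnl1* (1062), *Mbnl2* (1031), *Celf1* (852.2) and *Celf2* (620.2) and highest for *Ptbp1* (1371). LV AOB-H replicate 6 was lowest for *Rbm20* (3752) and *Rbm24* (1810) and highest for *Ptbp1* (1580), and RV AOB-H replicate 6, from the same animal, was lowest for *Rbfox1* (1661) and highest for *Ptbp1* (852.7). These 3 libraries also had the highest endothelial shares of their groups (0.278%, 0.529% and 0.258%), and the part of other cell types was not tested.

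Single values set apart in the F groups were *Mbnl1* in LV Sham-F replicate 7 (lowest, 639.3), *Mbnl2* in RV Sham-F replicate 5 (highest, 4149), *Mbnl2* and *Celf1* in LV PAB-F replicate 5 (highest, 2014 and 1169), *Qk* in LV AOB-F replicate 5 (highest, 759.5) and *Ptbp1* in RV AOB-F replicate 6 (lowest, 538.6). In the H groups of the RV they were *Qk* in RV PAB-H replicate 6 (highest, 1597) and *Ptbp1* in RV Sham-H replicate 7 (highest, 770.1), the library with the lowest endothelial share of its group (0.0755%). LV PAB-F replicate 5 had the highest count of its group for all 9 members other than *Ptbp1* and the lowest endothelial share (0.167%).

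The RV minus LV difference changed between Sham-H and Sham-F, by the interaction test of the edgeR fit, for *Mbnl2* (0.81 on the log2 scale), *Qk* (0.77), *Rbfox1* (0.73), *Mbnl1* (0.73), *Celf2* (0.43), *Celf1* (0.42), *Rbfox2* (0.32) and *Ptbp1* (-0.82).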

How the results depend on the processing

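The 10 calls in RV against LV of Sham-F numbered 9 or 10 under every alternative run, with 10 in each of the 18 fits without 1 library. The LV stage comparison kept 8 to 9 calls with 1 library left out (8 without LV Sham-H replicate 7) and 9 otherwise, and the interaction 7 to 8 calls under all alternatives and left-out libraries. In RV PAB-F the 2 calls became 4 with the length trend removed and 4 with only the 2 groups in the fit (*Qk* and *Mbnl2* added; the cause was not tested), 3 with RLE factors, no filter or DESeq2 (*Qk* added), and 0 to 3 with 1 library left out, the 0 without RV PAB-F replicate 1. In RV PAB-H the 0 calls became 2 in the fit of 2 groups and 0 to 1 with 1 library left out (*Rbm24*, without RV PAB-H replicate 6). RV against LV in Sham-H had 2 to 4 calls under other settings and 0 to 4 with 1 library left out, LV AOB-F 0 to 2 (and the other comparisons 0), and the PAB-F response of the ventricles 1 with the animal as a replicate block. No member's difference changed sign where it was called. The block by animal changed no other call in members, apart from *Mbnl2* in Sham-H. A block by replicate number, which only numbers different animals (median r of same-numbered banded and sham libraries of -0.081 to 0.16), left 2 calls in RV PAB-F, 9 in the LV stage comparison and 0 elsewhere. The ratios of the highest to the lowest group mean moved by less than the spread with the authors' normalized counts (1.41 to 3.12).

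Counts over all genes depended more on the setting. With only the 2 groups in the fit, 1589 genes were called in RV PAB-H (538 in the fit of all groups), 2764 in RV PAB-F (1325), 15 in LV AOB-F (1541), 1406 in RV against LV of Sham-H (2510, or 3887 with the block by animal), 112 in the RV stage comparison (6) and 0 in LV AOB-H (2). RV PAB-H had 346 without a filter and 326 with sex as a covariate. The RV stage comparison had 18 with the block by number and 22 with DESeq2, and LV AOB-H 1 without a filter, 4 with sex, 0 with the block by number and 35 with DESeq2. RV AOB-F had 8 and then 15 with sex and 2 with the block by number. The difference of the PAB-F responses had 42, then 21 with RLE, 16 without a filter, 18 with the length trend removed, 65 with DESeq2 and 349 with the block by animal, and that of the AOB-F responses 0 and then 1 with this block.

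With 6 to 9 libraries a group, SEs of a member's log2 difference were 0.08 to 0.27, so small changes of a member, as in the RV stage comparison, were within the error. Gene counts hold no exon usage, bulk libraries hold a mix of cells, and PAB-F and Sham-F animals differed in age.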
